A study of Mus musculus with 3186 samples.

Results

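Single-cell RNA from adult mouse brain was used to set 85 fibroblasts against 181 Acta2-high smooth muscle cells, 266 of the 3186 cells in the series. Each cell is 1 full-length Smart-seq2 library, and its level of a gene is given as CPM, the reads of that gene in 1000000 reads of the cell in genes. Both sides were chosen by measured values. A cell of the Pdgfra-H2BGFP mice was taken as a fibroblast if at least 2 of the 4 genes Col1a1, Col1a2, Dcn and Lum, which encode collagen I chains and the collagen-binding proteoglycans decorin and lumican, reached 50 CPM. A mural cell of the Pdgfrb(BAC)eGFP/NG2dsRed mice was taken as smooth muscle if Acta2, which encodes smooth muscle alpha-actin, reached 10000 CPM while the endothelial junction gene Cldn5 stayed under 1000 CPM.

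All mice were adult C57BL/6 animals aged 12 to 15 weeks, and no treatment is given in the labels. In Pdgfra-H2BGFP mice a nuclear green fluorescent protein is made wherever Pdgfra is active, which in brain includes both perivascular fibroblasts and the oligodendrocyte lineage. In Pdgfrb(BAC)eGFP/NG2dsRed mice 2 reporter transgenes mark mural cells, the pericytes and smooth muscle cells that wrap the vessel wall. The fibroblasts were 57 of 107 cells on plate Pdgfra1 and 28 of 150 cells on plate Pdgfra2. The smooth muscle cells were 43, 45, 46 and 47 cells on plates Mural3 to Mural6, between 11.7% and 12.5% of each plate. Mouse line and plate thus change together with cell class, and their effects cannot be told apart. The labels name no animal, so each side is 1 sample, no test was run, and the spread is given as the range over plates, which may be technical.

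Perivascular fibroblasts lie in the sheath around larger brain vessels and in the meninges, where they lay down the collagen, elastic microfibrils and basement membrane of the perivascular space. Arterial and arteriolar smooth muscle cells form the layer beneath, hold actin and smooth muscle myosin in contractile bundles, and set vessel diameter through calcium entry, store release and myosin phosphorylation. Both are thought of as mesenchymal cells of the vessel wall. The vessel that a cell came from is not recorded in the labels, so "arterial" here rests on the high Acta2 level alone.

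The values used for the choice are a description only. Pooled over each side, Dcn stood at 16440.5 CPM in fibroblasts and 2.04 CPM in smooth muscle cells, Lum at 5961 CPM against no read, Col1a2 at 1863 against 193 CPM and Col1a1 at 1148 CPM against no read. Acta2 stood at 38.2 CPM in fibroblasts and 29912 CPM in smooth muscle cells. Of the 85 fibroblasts, 64 had all 4 genes at 50 CPM, 11 had 3 and 10 had 2. In the 10 cells with 2 genes the pericyte marker Kcnj8 stood at 2501 CPM, Pdgfrb at 2146 CPM, Pdgfra at 27.4 CPM and the fibroblast marker Mmp2 at 83.4 CPM. In the 64 cells with all 4, Kcnj8 stood at 300.4 CPM, Pdgfrb at 820 CPM, Pdgfra at 309 CPM and Mmp2 at 605 CPM. The cells nearest the limits had a second highest gene of 57.7, 66.1 and 79.8 CPM just inside and 32.4, 21.4 and 13.9 CPM just outside. For Acta2 they had 10357, 10387 and 10518 CPM just inside and 9927, 9679 and 9479 CPM just outside, and 71 mural cells lay between 1000 and 10000 CPM. The gene behind the sorting reporter, Pdgfra, was read at 271 CPM in fibroblasts with 0 reads in smooth muscle cells, whereas Pdgfrb was read on both sides, at 942 against 1430.1 CPM.

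The names were checked against markers that the choice did not use, apart from Cldn5 in the endothelial sum. The 6 fibroblast markers (Col3a1, Col6a1, Col5a1, Fbln1, Mmp2 and Pdgfra) summed to 3926 CPM in fibroblasts against 112 CPM in smooth muscle cells, and the 6 smooth muscle markers (Tagln, Myh11, Cnn1, Myl9, Mylk and Des) to 794 against 29175 CPM. Pdgfra, with 271 CPM of the fibroblast sum, is the gene of the sorting reporter and no independent check. Among fibroblasts 76 of 85 cells reached 1000 CPM of fibroblast markers, and among smooth muscle cells all 181 reached 1000 CPM of their own. Pericyte markers were read on both sides. Their summed level was 4596 and 1918 CPM on the 2 fibroblast plates and between 1288 and 4441 CPM on the smooth muscle plates, against 56906 CPM in the 1154 mural cells with Acta2 under 1000 CPM. The fibroblast sum was mostly Vtn (3213 CPM) and Kcnj8 (561 CPM), and 43 of 85 fibroblasts held at least 1000 CPM of it. The endothelial sum was 38.1 and 943 CPM on the fibroblast plates, with 4 cells at 1000 CPM or more, and at most 12.7 CPM on a smooth muscle plate. Its member Cldn5 stood at 14.0 CPM in fibroblasts and 0.503 CPM in smooth muscle cells, and is no independent check on the smooth muscle side. The oligodendrocyte sum, 88754 CPM in the 166 other Pdgfra-H2BGFP cells in which none of the 4 genes reached 50 CPM, was 50.2 CPM in fibroblasts and 11.8 CPM in smooth muscle cells. Microglia and macrophage markers reached 1000 CPM in 5 fibroblasts and 1 smooth muscle cell. In fibroblasts 202 of their summed 259 CPM was Tmem119, read in 48 of 85 cells. Csf1r and C1qa stood at 22.3 and 16.1 CPM there, and Cx3cr1 and P2ry12 at 0.107 and 0.322 CPM. The fibroblast pool thus holds reads of genes that mark other vessel cells, and the part of these reads in any single gene below was not tested.

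**Figure D1:**
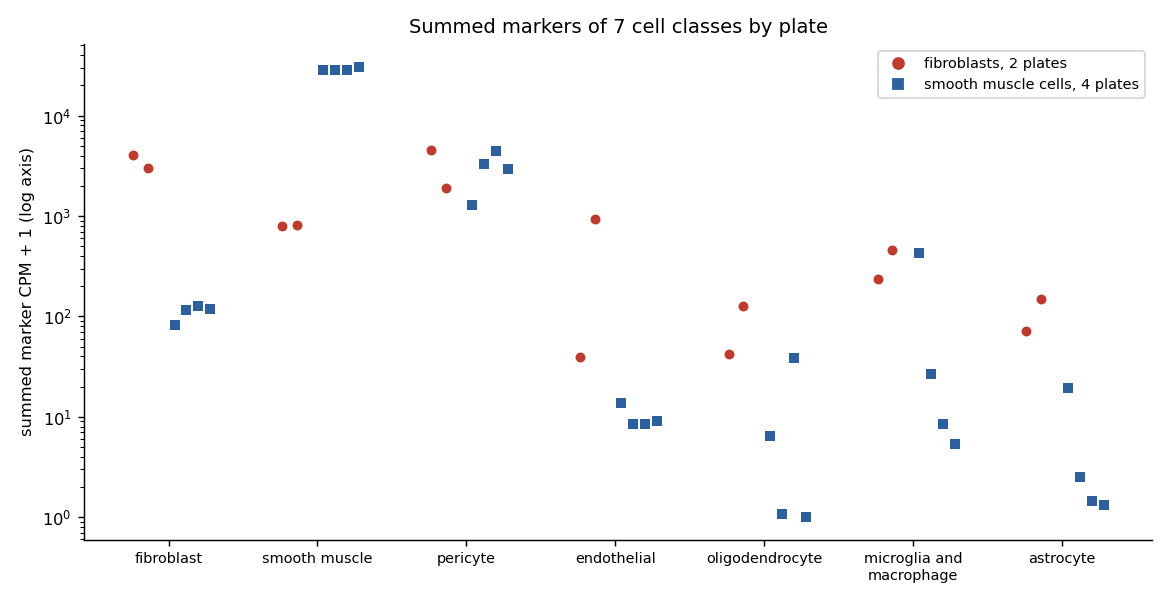
Summed CPM of fixed markers of 7 cell classes (log axis, 1 CPM added), 1 point a plate, red for the 2 fibroblast plates and blue for the 4 smooth muscle plates. Fibroblast and smooth muscle markers lie apart, while the pericyte sums of 1918 to 4596 CPM and 1288 to 4441 CPM overlap.

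Fibroblasts had a median of 659957 reads a cell (101545 to 1606954) and smooth muscle cells 377814 (147413 to 566883). The fibroblasts of plate Pdgfra1 were deeper than those of Pdgfra2, with medians of 864783 and 167712 reads, so 50111298 of the 55933627 pooled fibroblast reads came from Pdgfra1. Pooled fibroblast values are therefore weighted toward that plate, and both plates are given for the genes the results turn on. A median of 3807 genes was read in a fibroblast and 2950 in a smooth muscle cell. After each cell was thinned to 90000 reads the medians were 3266 and 2599 genes. Counts of no 2 of the 266 cells were identical. Intervals below are exact 95% Poisson or binomial intervals of the reads and cover counting error only.

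A gene was called higher or lower in fibroblasts if the pooled levels differed at least 2-fold and no fibroblast plate overlapped a smooth muscle plate. Among the 11609 genes with at least 5 CPM on a side, 1807 (15.6%) were called higher in fibroblasts and 1293 (11.1%) lower. A further 6813 genes (58.7%) lay within 2-fold, 1696 passed 2-fold with overlapping plates, and the median log2 ratio of fibroblasts over smooth muscle was 0.06. Since the cells were chosen on 6 genes of the same libraries, these counts describe the contrast and test nothing. Without the 43 fibroblasts and 81 smooth muscle cells that held 1000 CPM or more of pericyte markers, an alternative added after the data were seen, 1832 genes were called higher and 1277 lower, of which 1263 and 901 were also called over all cells. Without plate Pdgfra1, which leaves 28 fibroblasts on 1 plate, 3437 were called higher and 3037 lower.

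The genes furthest up in fibroblasts encode secreted and matrix proteins, enzymes and surface receptors. Apod, a lipid-binding lipocalin, had 12021 and 18080.2 CPM on the 2 fibroblast plates, against 0.211, 0.320, 1.40 and 0.269 CPM on the smooth muscle plates. Across cells its level ran up to 82848 CPM in fibroblasts (median 5067, lowest 2.19) and up to 53.9 CPM in smooth muscle cells (median 0). Tgfbi, a matrix protein that binds collagen and integrins, had 5138 and 867 CPM on the fibroblast plates, against at most 0.622 CPM on a smooth muscle plate. The lowest fibroblast plate lay far above the highest smooth muscle plate for both genes. A gene with no read in the smooth muscle pool may have a level of up to 0.0443 CPM there, and in the fibroblast pool of up to 0.0536 CPM. Efemp1 (fibulin 3), Mfap4 and Inmt had no read in any of the 181 smooth muscle cells and stood at 2284, 963 and 1942 CPM in fibroblasts, which is at least 51509-fold, 21719-fold and 43805-fold higher when 3 reads are allowed to the smooth muscle pool. Vcam1, an adhesion receptor for leukocyte integrins, and F3, the tissue factor that starts coagulation, had 1 smooth muscle read each, against 2205 and 1738 CPM in fibroblasts. Their ratios of 149207 (counting interval 26779 to 5893410.0) and 117613 (21109 to 4645520.0) are accordingly loose. Serpinf1, the secreted serpin PEDF, stood at 1360.5 against 0.296 CPM.

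Several of these genes were uneven over the fibroblast plates. Vcam1 had 2410.5 CPM on Pdgfra1 and 439.7 CPM on Pdgfra2, and F3 1890.0 and 434 CPM. Moxd1, a monooxygenase-like protein, had 4542 CPM on Pdgfra1 and 191 CPM on Pdgfra2, Coch (cochlin) 2914 and 393 CPM, and the dipeptidase gene Dpep1 1079 and 57.0 CPM. Ptgds, the prostaglandin D synthase that is also a carrier of lipids in cerebrospinal fluid, went the other way with 1250.1 and 31562 CPM. Few high cells carried these pooled values: the median fibroblast had 38.3 CPM of Coch, 1.36 CPM of Dpep1 and 8.21 CPM of Ptgds, with highest cells of 26928, 4966 and 249422 CPM. Ptgds and Apod were also read at 12183 and 4585 CPM in the other Pdgfra-H2BGFP cells of the same plates.

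Of the genes furthest down in fibroblasts, several belong to the contractile cell itself. Myh11, smooth muscle myosin heavy chain, had 4.05 and 2.92 CPM on the fibroblast plates, against 5828, 5795, 5389.6 and 6213 CPM on the smooth muscle plates. It was read in 5 of 85 fibroblasts, none above 418 CPM, and in all 181 smooth muscle cells, whose median was 5773 CPM. With each cell thinned to 90000 reads, these shares were 3.53% and 100.0%. Pln, phospholamban, the brake on the calcium pump of the sarcoplasmic reticulum, stood at 2.99 against 2044 CPM, and Cnn1, the actin-binding calponin 1, at 0.179 against 451 CPM. Cnn1 was uneven among smooth muscle cells: it was read in 93 of 181, with a median of 2.40 and a highest value of 3259 CPM. A pair of olfactory receptor family genes, Olfr558 and Olfr78, had no read in the fibroblasts and 600.4 and 471 CPM in smooth muscle cells, at least 11194-fold and 8773-fold lower in fibroblasts. They were read in 107 and 99 of the 181 smooth muscle cells. The same group held Atp1b1, a beta subunit of the sodium pump (0.858 against 633 CPM), Pdlim3, a protein of actin anchoring sites (2.22 against 749 CPM), Asb2, a ubiquitin ligase subunit (0.143 against 433 CPM), and Dgkb, a diacylglycerol kinase (0.465 against 460.2 CPM). Nrip2, Susd5 and Odf3l1 completed it with 1005, 447 and 749 CPM in smooth muscle cells, against 2.09, 0.429 and 2.29 CPM in fibroblasts. Odf3l1 also stood at 491 CPM in the mural cells with Acta2 under 1000 CPM. It lies at chr9:56848659-56864679, next to Cspg4 (chr9:56865033-56899870), the NG2 gene behind a reporter of the mural line. The part of mouse line or reporter in the Odf3l1 level was not tested.

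**Figure D2:**
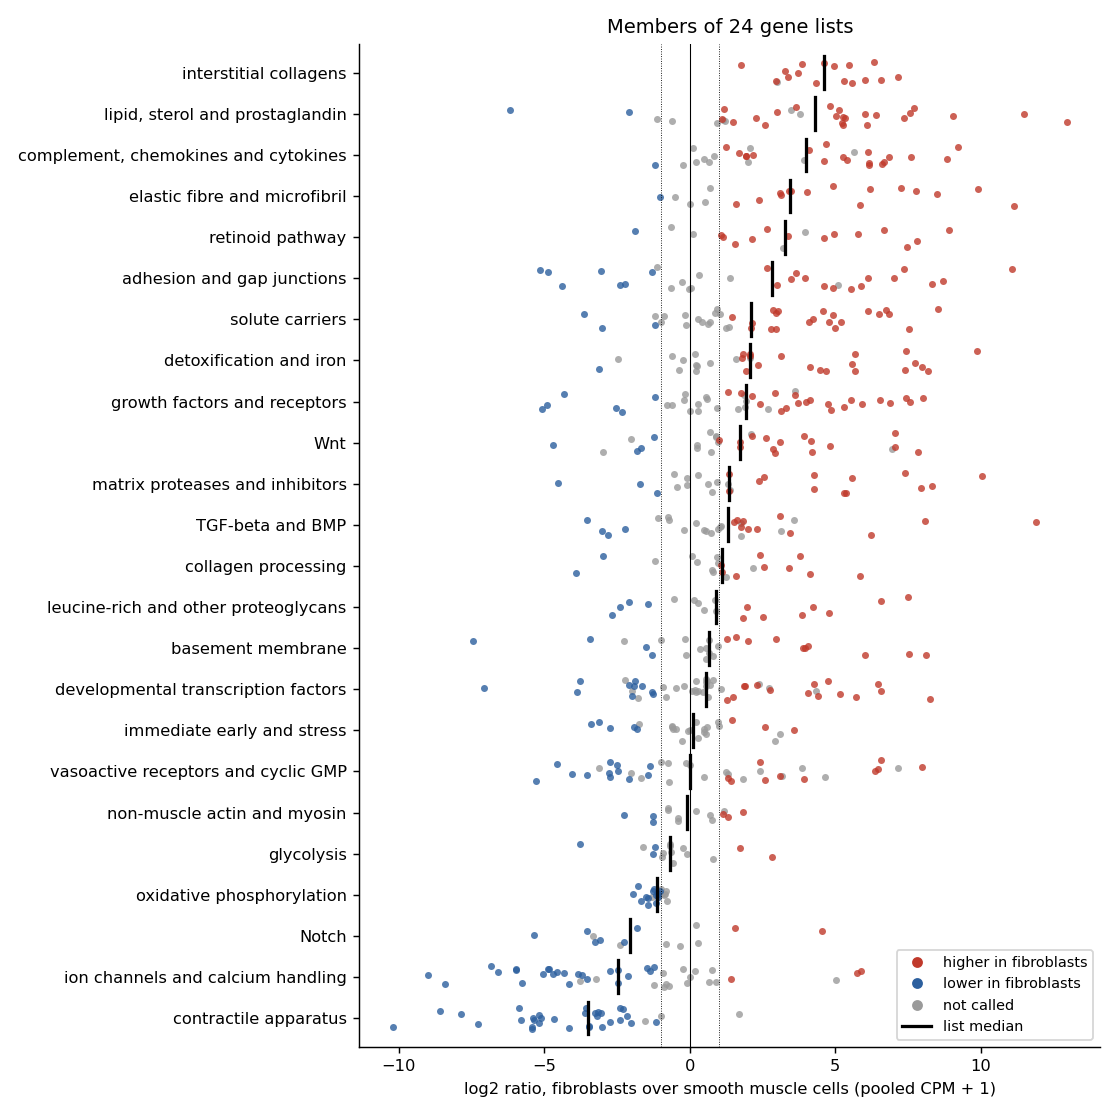
Log2 ratio of fibroblasts over smooth muscle cells (pooled CPM with 1 CPM added) for the members of 24 gene lists with at least 5 CPM on a side, ordered by list median. Red and blue points were called higher and lower in fibroblasts, grey points were not called and black bars are medians, which run from 4.61 for interstitial collagens down to -3.51 for the contractile apparatus.

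Collagens of the loose connective tissue were higher in fibroblasts nearly throughout. Of 17 interstitial collagen genes counted beside those used for the choice, 16 were called higher in fibroblasts and 0 lower, against 15.6% and 11.1% of all genes. These shares of all genes are the background for every list count below. Their median log2 ratio was 4.61. Col3a1, the partner of collagen I in fine fibrils, had 1606 and 738 CPM on the fibroblast plates, against 57.3 to 63.6 CPM on the smooth muscle plates, a ratio of 24.8 (24.0 to 25.5). The beaded-filament collagen VI chains Col6a1 and Col6a3 stood at 852 against 16.8 CPM and at 142 CPM against no read. Col12a1, which coats fibril surfaces, stood at 326 against 2.42 CPM. Col13a1 and Col26a1 stood at 109 and 128 CPM in fibroblasts and 0.355 and 1.01 CPM in smooth muscle cells. The fibril-associated Col14a1 differed least, with 224 and 92.7 CPM on the fibroblast plates and 8.95 to 88.4 CPM on the smooth muscle plates.

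The machinery that folds and trims collagen was shared to a larger degree. Of 20 genes counted, 9 were called higher, 2 lower and the median ratio was 1.09. Called higher were, among others, Mrc2, a receptor that takes up collagen (441 against 6.64 CPM), Adamts2, which removes procollagen N-propeptides (133 against 6.67 CPM), the collagen-cleaving cathepsin Ctsk (321 against 22.3 CPM) and Pcolce, an enhancer of C-propeptide removal (1350.1 against 232 CPM). Serpinh1, the collagen chaperone HSP47, and the lysyl hydroxylase Plod1 lay within 2-fold, at 436 against 258 CPM and 151 against 126 CPM. Called lower in fibroblasts were another N-proteinase, Adamts14 (17.5 against 146 CPM), and the prolyl 3-hydroxylase gene Leprel1 (3.36 against 64.4 CPM). The pair Adamts2 and Adamts14 thus stood in opposite order on the 2 sides.

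Elastic fibres have a core of elastin on a scaffold of fibrillin microfibrils. Of 20 genes counted, 15 were called higher in fibroblasts and 1 lower (median 3.45). Beside Efemp1 and Mfap4, these were led by Fbln5, which guides elastin assembly and had no read in smooth muscle cells (359 CPM in fibroblasts, 379 and 194 CPM by plate), and by Fbln2 (217 CPM in fibroblasts, also with no smooth muscle read). The elastin gene itself did not follow: Eln stood at 62.2 and 179.7 CPM on the fibroblast plates and between 58.7 and 151 CPM on the smooth muscle plates. The crosslinking enzyme Lox stood at 107 against 106 CPM, a ratio of 1.01 (0.971 to 1.04), and Efemp2 at 376 against 232 CPM. Ltbp1, which tethers latent TGF-beta, was called lower at 340.0 against 697 CPM, close to the 2-fold limit.

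Among 18 proteoglycans counted, 8 were called higher and 4 lower (median 0.89). Podn, a small leucine-rich proteoglycan, stood at 181 CPM with no smooth muscle read, Prg4 (lubricin) at 129 against 0.355 CPM, the syndecan Sdc1 at 63.1 against 1.32 CPM and versican, Vcan, at 72.6 against 2.93 CPM. Asporin, Aspn, a close relative of the decorin used for the choice, was lower in fibroblasts, with 144 and 4.47 CPM by plate, against 595 to 949.6 CPM. Asporin reads lay in 14 of 85 fibroblasts and 154 of 181 smooth muscle cells, or 14.1% and 85.1% after thinning to 90000 reads. The cell surface heparan sulphate carriers Gpc1, Gpc4 and Sdc4 were lower too, at 14.3, 33.8 and 139 CPM in fibroblasts and 80.1, 147 and 375 CPM in smooth muscle cells. Prelp lay within 2-fold, at 1214 against 663 CPM, as did Sdc2, at 492 against 725 CPM.

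Of basement membrane genes, the collagen IV chains were read on both sides, while the laminin alpha chains differed. Laminins are trimers of an alpha, a beta and a gamma chain, and the alpha chain carries the sites that bind cells. Lama1 had 306 and 856 CPM on the fibroblast plates and at most 1.41 CPM on a smooth muscle plate. Lama2 had 1021 and 579 CPM in fibroblasts, against 47.6, 48.1, 72.3 and 57.0 CPM in smooth muscle cells. Lama5 stood the other way, with 2.85 and 0 CPM in fibroblasts, against 525, 708, 549 and 706 CPM in smooth muscle cells, a log2 ratio of -7.46. For none of the 3 genes did the plates overlap. Lama5 was read in 6 of 85 fibroblasts, with a highest cell of 136 CPM, and in 165 of 181 smooth muscle cells, with a median of 546 and a highest cell of 3101 CPM. After thinning the shares were 3.53% and 90.6%. Lama4 was read on both sides, at 202 against 136 CPM.

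Of the partner chains, Lamb1 was higher in fibroblasts (600.4 against 8.31 CPM), while Lamb2 (351 against 695 CPM) and Lamc1 (344 against 269.9 CPM) lay within 2-fold. The collagen IV chains Col4a1 and Col4a2, which form the sheet of every basement membrane, stood at 457 against 516 CPM and 357 against 391 CPM, and their plates overlapped. Col15a1, a collagen at the outer face of basement membranes, stood at 183 CPM in fibroblasts with no smooth muscle read. Tinagl1, a basement membrane glycoprotein, was lower in fibroblasts at 148 against 1589 CPM, as were Agrn (86.4 against 249 CPM) and the integrin ligand Npnt (29.2 against 74.0 CPM). In all, 10 of 25 genes of the list were called higher and 4 lower (median 0.65). The genes are on mm10 chr17:67697259-67822647 for Lama1, chr10:26980036-27619758 for Lama2 and chr2:180176373-180225859 for Lama5.

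Matrix-degrading enzymes and their inhibitors followed the collagens in part, with 13 of 26 higher and 3 lower (median 1.35). The gelatinase gene Mmp2, one of the fibroblast markers, stood at 523 against 1.12 CPM, the serine protease gene Htra3 at 323 CPM with 1 smooth muscle read and the metalloprotease gene Adam12 at 185 against 0.103 CPM. The tissue inhibitors differed: Timp4 was lower in fibroblasts (0.197 against 26.8 CPM), Timp2 lay within 2-fold (554 against 287 CPM), and Timp3 stood at 5952 and 1365 CPM in fibroblasts, against 1868 to 2575 CPM, with overlapping plates. Adamts1 stood at 884 against 945 CPM. Adamts15 was lower at 38.0 against 84.8 CPM.

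The contractile apparatus was lower in fibroblasts nearly throughout. Of 34 genes counted beside Acta2, 31 were called lower and 0 higher, and the median ratio (log2) was -3.51. Tagln, the actin-bundling protein transgelin, had 23.8 and 90.0 CPM on the fibroblast plates, against 4377, 4993, 4797 and 5287 CPM on the smooth muscle plates. Myl9, the regulatory light chain phosphorylated at contraction, stood at 424 against 14729.9 CPM, Tpm2 (tropomyosin) at 101 against 4189.7 CPM and filamin A, Flna, at 811 against 9627 CPM. The order of plates was the same for these genes, all 4 smooth muscle plates above both fibroblast plates. Myl9 was still read in 66 of 85 fibroblasts, with a median of 160.1 CPM, and stood at 3840.3 CPM in the mural cells with low Acta2, which carry the pericyte markers. Without the cells of either side that held 1000 CPM or more of pericyte markers, 31 genes were called lower, and 1, Itga8, higher. Cald1 lay just within 2-fold, at 942 against 1884 CPM. Itga8, an integrin subunit of contractile cells, was the 1 counted member with a higher pooled level in fibroblasts, at 812 and 273 CPM by plate, against 125 to 375 CPM, and its plates overlapped.

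Many contractile genes carry a CArG box, the site of serum response factor. RefSeq promoters (GRCm38.p6, 250 bases before to 50 after the start) were found for 29 of the 35 genes of this list with Acta2. Myh11, Tagln, Actg2, Csrp2 and Nexn were among those with no entry. The box was searched as the exact pattern CCWWWWWWGG, where W is A or T. The pattern, though not each matching string, is the same on both strands. It was found in the window of 4 of the 29 genes (13.8%), against 1.60% of the 8809 counted genes with an entry. Among those called lower and higher in fibroblasts the shares were 2.41% and 1.72%. These 4 were Myl9, Myl6, Vcl and Ldb3, all called lower in fibroblasts. A match is a string of letters and no proof of binding, and most members had no exact match in this window. Near matches were not counted. The Acta2 window, scored without a box, holds ccctatatgg, which differs from the pattern in a single base. The windows are shown because these genes moved together, 5′ to 3′ on the gene's strand, with the box in capitals. They lie at chr2:156775214-156775513 (plus strand) for Myl9, chr10:128492960-128493259 (minus) for Myl6, chr14:20929148-20929447 (plus) for Vcl and chr14:34588558-34588857 (minus) for Ldb3.
Myl9: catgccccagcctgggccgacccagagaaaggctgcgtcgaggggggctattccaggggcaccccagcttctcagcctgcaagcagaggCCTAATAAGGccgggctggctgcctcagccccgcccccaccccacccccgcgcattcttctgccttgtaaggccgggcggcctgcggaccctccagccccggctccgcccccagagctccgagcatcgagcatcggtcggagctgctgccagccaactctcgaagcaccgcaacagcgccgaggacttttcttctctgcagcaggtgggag
Myl6: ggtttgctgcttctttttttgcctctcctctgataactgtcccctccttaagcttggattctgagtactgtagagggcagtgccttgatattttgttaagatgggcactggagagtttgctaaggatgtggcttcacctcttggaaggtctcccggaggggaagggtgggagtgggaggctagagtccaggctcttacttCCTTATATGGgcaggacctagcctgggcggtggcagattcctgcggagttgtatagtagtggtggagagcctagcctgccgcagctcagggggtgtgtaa
Vcl: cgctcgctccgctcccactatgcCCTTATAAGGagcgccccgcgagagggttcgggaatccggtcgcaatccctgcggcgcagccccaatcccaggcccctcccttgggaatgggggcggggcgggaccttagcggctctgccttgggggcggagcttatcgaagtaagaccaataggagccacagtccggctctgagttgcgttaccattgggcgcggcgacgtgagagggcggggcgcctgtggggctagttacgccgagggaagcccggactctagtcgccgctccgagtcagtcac
Ldb3: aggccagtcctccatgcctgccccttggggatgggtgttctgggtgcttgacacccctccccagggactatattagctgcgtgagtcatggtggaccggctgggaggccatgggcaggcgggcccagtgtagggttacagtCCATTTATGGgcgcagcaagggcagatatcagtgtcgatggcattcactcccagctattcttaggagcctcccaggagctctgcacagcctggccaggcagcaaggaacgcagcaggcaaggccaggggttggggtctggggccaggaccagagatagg
The boxes begin 161, 50, 227 and 109 bases before the start shown for Myl9, Myl6, Vcl and Ldb3. Their genes stood at 424, 89.8, 377 and 3.54 CPM in fibroblasts and 14729.9, 744, 837 and 193 CPM in smooth muscle cells. Ldb3 has another listed start, with the same box 35 bases before it. Another Myl6 window, at chr10:128493837-128494136, holds no box.

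Actin and myosin genes of all cells were less divided. Of 14 counted, 3 (21.4%) were called higher and 3 (21.4%) lower (median -0.08), beside 15.6% and 11.1% of all genes. Actb, cytoplasmic beta-actin, was lower at 2351 and 1483 CPM in fibroblasts, against 4885 to 5699 CPM, as were profilin, Pfn1 (202 against 486 CPM), and the intermediate filament gene Vim (535 against 2568 CPM). Vimentin is often used as a fibroblast marker. Here its ratio of fibroblasts over smooth muscle was 0.208, with 505 and 797 CPM by plate, against 2419 to 2680.0 CPM. The non-muscle myosin gene Myh10 was higher (54.1 against 21.1 CPM), as was Tpm3 (77.8 against 34.8 CPM), while Tagln2 and the actin-binding thymosin gene Tmsb4x lay within 2-fold (782 against 1029.6 CPM and 1011 against 589.8 CPM).

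Ion channels and calcium handling genes were mostly lower in fibroblasts, with 24 of 42 called lower and 3 higher (median -2.47). The group spans calcium entry, store release and membrane potential. Cacna1c, the pore of the voltage-gated L-type calcium channel, stood at 6.17 against 205 CPM, and Casq2, the calcium buffer of the store, at 2.20 against 361 CPM. Casq2 was uneven in smooth muscle, read in 88 of 181 cells with a highest value of 4062 CPM. The potassium channel gene Kcna5 had 2 reads in fibroblasts and 98.2 CPM in smooth muscle cells, a ratio of 0.000364 (counting interval 4.41e-05 to 0.00132). Ano1, a calcium-activated chloride channel, stood at 70.5 against 1033 CPM, and Kcnmb1, the beta subunit that tunes the large-conductance potassium channel to calcium, at 6.28 against 392 CPM. Kcne4, an accessory potassium channel subunit, lay within 2-fold at 439 against 473 CPM. Called higher in fibroblasts were Kcnt2 (107 against 0.813 CPM), the background potassium channel gene Kcnk2 (52.5 CPM, no smooth muscle read) and Pkd2 (169.5 against 62.3 CPM). Of the sodium pump, the beta subunit gene Atp1b1 was among the genes furthest down and Atp1b2 was lower at 793 against 1858 CPM.

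Receptors and cyclic nucleotide genes that set vessel tone were divided between the sides, with 10 of 39 called higher, 12 lower and a median of 0.00. These are shares of 25.6% and 30.8%, beside 15.6% and 11.1% of all genes. The nitric oxide receptor, soluble guanylate cyclase, lay with smooth muscle: Gucy1a3 had 171 and 0.687 CPM on the fibroblast plates, against 976 to 1099 CPM, and Gucy1b3 143 and 26.1 CPM, against 658 to 804 CPM. The 3 natriuretic peptide receptors, of which Npr1 and Npr2 are membrane guanylate cyclases and Npr3 clears the peptides, lay with fibroblasts: Npr1 stood at 22.3 against 7.67 CPM, Npr2 at 127 against 0.458 CPM and Npr3 at 28.3 against 0.946 CPM. The cyclic GMP-dependent kinase gene Prkg1 overlapped (138 against 228 CPM). A pair of phosphodiesterase genes was lower in fibroblasts, Pde3a at 7.83 against 341 CPM and Pde5a at 44.4 against 309 CPM. The fibroblast reads of Gucy1a3 lay in 23 of 85 cells, and this gene stood at 729.6 CPM in the pericyte-marker-rich mural cells with low Acta2. Without the chosen cells rich in pericyte markers, 10 genes of the list were called higher and 14 lower.

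Other receptors went both ways. Npy1r, which binds neuropeptide Y from sympathetic nerves, stood at 33.4 against 802 CPM, P2rx1, an ATP-gated channel, at 7.56 against 98.8 CPM, and Rgs4, which switches off G proteins, at 231 against 3850.0 CPM. Ramp2, the partner that turns the calcitonin receptor-like receptor into an adrenomedullin receptor, had 3 smooth muscle reads and 265 CPM in fibroblasts (ratio 5967, counting interval 2041 to 28938), whereas Ramp1, which gives the receptor for CGRP, was lower at 38.8 against 262 CPM. The prostaglandin F receptor gene Ptgfr (94.5 CPM, 1 smooth muscle read) and the ADP receptor gene P2ry1 (81.5 CPM, no smooth muscle read) were higher. S1pr3 and P2ry14 lay within 2-fold at 508 and 212 CPM in fibroblasts and 849.7 and 421 CPM in smooth muscle cells.

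**Figure D3:**
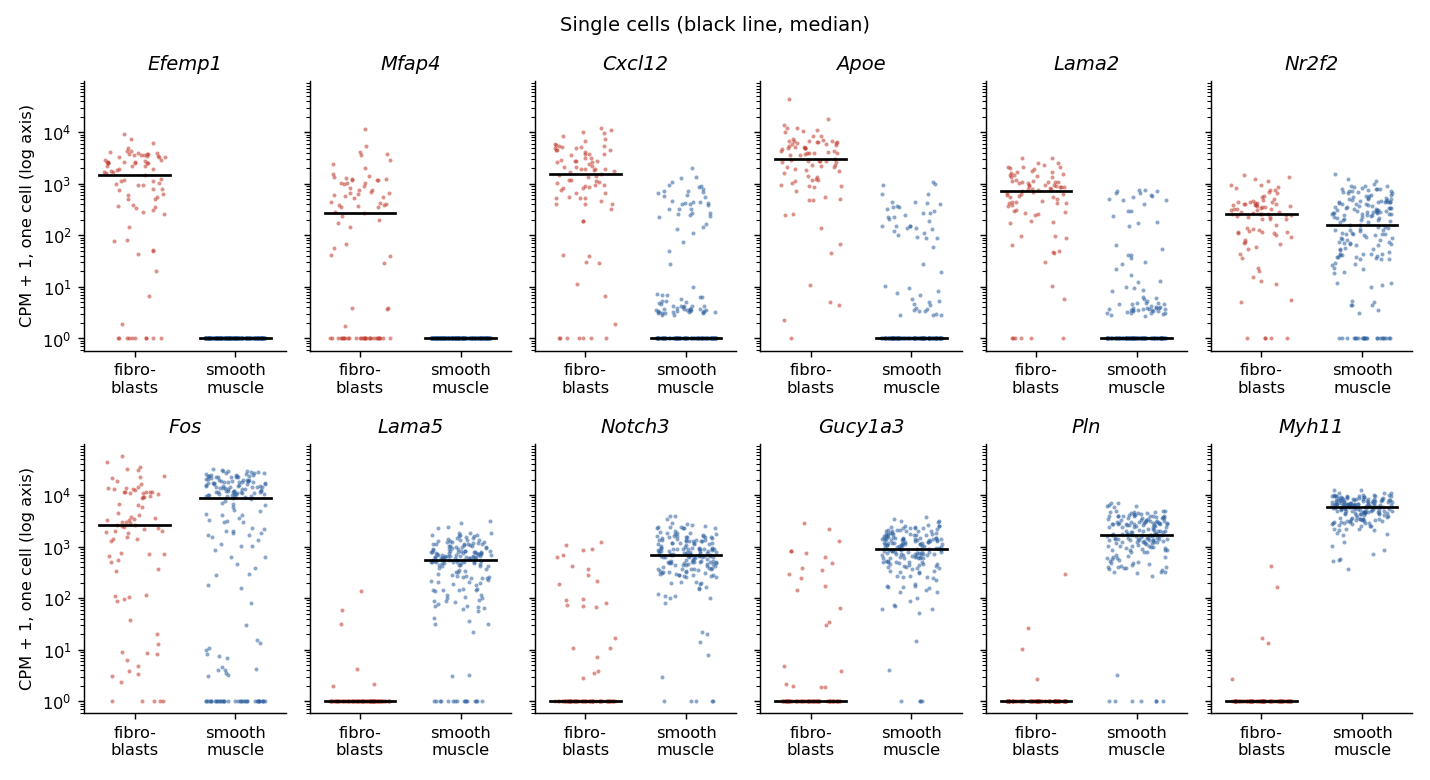
CPM of 12 genes in each of the 85 fibroblasts (red, left) and 181 smooth muscle cells (blue, right), on a log axis with 1 CPM added; black lines are medians. Efemp1 and Mfap4 have no smooth muscle read, the cells of both sides overlap for Nr2f2 and Fos, and Myh11 was read in 5 fibroblasts and in all smooth muscle cells.

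Connexins, which pair between cells to form gap junctions, differed in kind. Gjb6 had 278 and 663 CPM on the fibroblast plates and no smooth muscle read, Gjb2 287 and 266 CPM, against at most 5.06 CPM, and Gja1 104 and 275 CPM, against at most 5.07 CPM. Gja4 had 206 and 18.0 CPM on the fibroblast plates, against 812 to 1092 CPM, and Gjc1 41.0 and 87.8 CPM, against 316 to 424 CPM. The first 3 genes and the last 2 were thus separated by plate in opposite directions. Gja4 was read at 841 CPM in the low-Acta2 mural cells, and the part of such cells in its fibroblast reads was not tested. Over the whole list of adhesion and junction genes 15 of 30 were called higher and 7 lower (median 2.83). Icam1 joined Vcam1 among leukocyte adhesion receptors (207 against 0.266 CPM). Cldn11, a tight junction claudin, stood at 428 CPM with 2 smooth muscle reads (ratio 14478, counting interval 4007 to 119554), and at 6016 CPM in the other, oligodendrocyte-marker-rich Pdgfra-H2BGFP cells. Itga7, a laminin receptor subunit of muscle, was lower at 26.3 against 575 CPM, and so were the cadherin genes Cdh6 (2.97 against 141 CPM) and Cdh4 (0.0715 against 30.6 CPM), while the integrin subunit genes Itgb5 (182 against 178 CPM) and Itga3 (127 against 197 CPM) lay within 2-fold.

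Retinoic acid is made from vitamin A by retinaldehyde dehydrogenases and acts on nuclear receptors. In this pathway 13 of 18 genes were called higher in fibroblasts and 1 lower (median 3.29). The synthetic enzyme genes Aldh1a2 and Aldh1a1 stood at 175 CPM against no read and at 369.7 against 5.72 CPM. The carrier gene Rbp4 stood at 226 CPM against no read, and Cyp1b1, a cytochrome P450 that oxidises retinol, at 499.6 CPM with 2 smooth muscle reads. Aldh1a2 and Rbp4 were read in 30 and 31 of 85 fibroblasts. Rdh5 was the member called lower (12.3 against 47.6 CPM), and the receptor gene Rarg (38.8 against 35.5 CPM) and the retinal reductase gene Dhrs3 (181 against 283 CPM) lay within 2-fold.

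Ligands of the TGF-beta family lay on both sides. Bmp7 and Bmp4 were higher in fibroblasts, at 162 against 1.15 CPM and 122 against 10.2 CPM, as was Gdf10 (271 CPM against no read), of which 302 CPM lay on Pdgfra1 and 2.40 CPM on Pdgfra2. Tgfb3 and Tgfb2 were lower, with 36.7 and 69.4 CPM by fibroblast plate, against 422 to 559 CPM, and 28.5 and 17.2 CPM, against 69.0 to 206 CPM. Inhba, an activin subunit, was lower as well (3.54 against 30.5 CPM). The BMP target Id3 (1853 against 1112 CPM) and the BMP antagonist gene Nbl1 (317 against 525 CPM) lay within 2-fold. Over the list 11 of 30 were called higher and 4 lower (median 1.31).

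Wnt genes higher in fibroblasts included ligands and secreted antagonists. Wnt5a stood at 131 and 129 CPM on the fibroblast plates with no smooth muscle read, the secreted frizzled-like proteins Sfrp4 and Frzb at 227 and 132 CPM with none (Frzb 146 CPM on Pdgfra1 and 7.21 CPM on Pdgfra2), and Dkk3 at 339 against 11.0 CPM. The intracellular antagonist gene Nkd1 was lower in fibroblasts, with 14.0 and 41.0 CPM, against 379.9 to 575 CPM, and the ligand gene Wnt5b was lower at 28.8 against 104 CPM. Apcdd1, a membrane-bound antagonist, and the R-spondin receptor gene Lgr4 were lower as well (14.7 against 49.0 CPM and 10.4 against 25.6 CPM), while the receptor genes Ror1 and Lrp6 lay within 2-fold (101 against 62.6 CPM and 113 against 60.4 CPM). Another ligand gene, Wnt2, showed how the plate rule acts: it had 147 CPM on Pdgfra1 and 0 CPM on Pdgfra2, against 0 to 0.256 CPM on the smooth muscle plates, and was not called. In all, 15 of 30 genes were called higher and 4 lower (median 1.72). Without the cells rich in pericyte markers, 10 were called higher and 2 lower.

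Notch signalling in arteries runs from Jag1 to Notch3 of the smooth muscle layer. Of 14 genes of this pathway 6 were called lower in fibroblasts and 2 higher (median -2.04). Notch3 had 101 and 21.6 CPM on the fibroblast plates, against 618, 817, 1166 and 894 CPM on the smooth muscle plates. Its target genes Heyl, Hey2 and Nrarp stood at 161, 15.6 and 6.22 CPM in fibroblasts, against 778, 193 and 291 CPM in smooth muscle cells. Notch2 and Jag1 lay within 2-fold, at 172 against 141 CPM and 200.4 against 352 CPM, while Lfng, which modifies Notch receptors, was higher (22.9 CPM, 1 smooth muscle read). Notch3 and Heyl were read at 1015 and 835 CPM in the mural cells with low Acta2, and their fibroblast reads lay in 24 and 27 of 85 cells, beside a pericyte-marker sum of 4596 and 1918 CPM on the fibroblast plates. Without the cells rich in pericyte markers, 8 genes of the pathway were called lower and 2 higher.

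Growth factors and their receptors counted 21 of 43 higher and 6 lower in fibroblasts (median 1.93). The insulin-like growth factors and 2 of their binding proteins lay with fibroblasts: Igf1 stood at 192 CPM with 1 smooth muscle read, Igf2 at 429.6 and 2611 CPM by plate, against at most 8.52 CPM, Igfbp2 at 198 and 1677 CPM, against at most 3.03 CPM, and Igfbp6 at 260.4 CPM with no smooth muscle read. Hgf, hepatocyte growth factor, stood at 117 CPM, also with no smooth muscle read. Of the PDGF ligand genes 3 lay with smooth muscle and Pdgfd did not (41.8 against 28.2 CPM, within 2-fold): Pdgfa had 12.7 and 9.27 CPM on the fibroblast plates, against 248 to 285 CPM, Pdgfb stood at 0.286 against 42.3 CPM and Pdgfc at 10.1 against 63.2 CPM. The ligand Pdgfa was thus read on the side without reads of its receptor gene Pdgfra, which is also the gene behind the fibroblast sort. Fgf1 was lower in fibroblasts too (15.9 against 506 CPM). Igfbp7 and Angpt2 lay within 2-fold, at 6375 and 105 CPM in fibroblasts and 5184 and 161 CPM in smooth muscle cells.

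Of complement, chemokine and cytokine genes 19 of 30 were called higher in fibroblasts and 1 lower (median 4.00). Cxcl12, a chemokine that retains leukocytes at vessels, had 3147 and 1676 CPM on the fibroblast plates, against 80.5 to 149.8 CPM. It was read in 78 of 85 fibroblasts. The alarmin gene Il33 stood at 589 CPM with no smooth muscle read, and also at 1779 CPM in the other Pdgfra-H2BGFP cells. Cxcl10 (459 CPM) and Ccl11 (117 CPM) were read in part of the fibroblasts, 26 and 18 of 85, and Cxcl16 stood at 389 against 0.990 CPM. Il34 and Nfkbia lay within 2-fold (267 against 246 CPM and 370.2 against 233 CPM), and C1qtnf7 was lower (69.9 against 161 CPM).

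Membrane transporters were a further class read in fibroblasts, with 21 of 38 solute carriers called higher and 3 lower (median 2.12). Slc7a11, the cystine-glutamate exchanger, had 325 and 1156 CPM by plate, against at most 0.211 CPM. The sulphate and organic anion carriers Slc13a4 and Slc22a6 had 63.8 and 66.4 CPM on Pdgfra1 and 543 and 458 CPM on Pdgfra2, with no smooth muscle read. Slc6a13, a carrier of GABA and taurine, had 337 and 1888 CPM, against at most 9.43 CPM, and Slc43a3 stood at 206 against 0.103 CPM. Without the fibroblasts rich in pericyte markers, Slc6a13 stood at 46.5 CPM in the other 42 fibroblasts. Without such cells on either side, 15 solute carriers were called higher and 3 lower. Slc38a11 and the folate carrier gene Slc19a1 were lower in fibroblasts, at 42.6 against 544 CPM and 88.5 against 719 CPM. The inositol carrier gene Slc5a3 was lower (62.8 against 145 CPM) and the glutamine carrier gene Slc38a2 within 2-fold (376 against 412 CPM). The glucose carrier gene Slc2a1 stood at 27.4 against 50.8 CPM with overlapping plates.

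Lipid and prostaglandin genes had 23 of 32 called higher and 2 lower (median 4.31). Beside Apod and Ptgds, the lipid pump gene Abca8a had 3 smooth muscle reads and 555 CPM in fibroblasts (ratio 12519, counting interval 4283 to 60709). Apoe, the main lipid carrier protein of brain, had 3765 and 5928 CPM, against 45.9 to 77.1 CPM, and was read in 84 of 85 fibroblasts. The prostaglandin enzymes Ptgs2 and Ptges were higher (254 against 2.04 CPM and 381 against 9.00 CPM), as was Hpgd, which degrades prostaglandins (241 against 0.266 CPM). Hsd11b1, which activates glucocorticoid, stood at 209 CPM with no smooth muscle read. Prostacyclin synthase, Ptgis, and the lipid phosphatase gene Ppap2a lay within 2-fold (196 against 300.3 CPM and 193 against 101 CPM), and the lipid droplet gene Plin4 had no fibroblast read and 70.7 CPM in smooth muscle cells, at least 1318-fold lower.

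Enzymes of detoxification and iron genes had 19 of 31 called higher and 1 lower (median 2.07). The alcohol dehydrogenase gene Adh1 had 1059 and 117 CPM by plate and 1 smooth muscle read (ratio 65016, counting interval 11669 to 2568050.0), and Aox3, an aldehyde oxidase gene, 253 CPM with no smooth muscle read. Gpx3, a secreted glutathione peroxidase, had 244 CPM on Pdgfra1, 0.859 CPM on Pdgfra2 and 2 smooth muscle reads. Transferrin, Trf, stood at 3731 against 11.8 CPM, and its receptor gene Tfrc the other way at 9.26 against 88.3 CPM. Trf stood at 13036 CPM in the other Pdgfra-H2BGFP cells. Ferritin heavy chain, Fth1, and Gpx1 lay within 2-fold (2643 against 3125 CPM and 283 against 366 CPM).

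Transcription factors of mesenchymal development were in part shared. Of 49 counted, 15 (30.6%) were called higher and 10 (20.4%) lower (median 0.54), beside 15.6% and 11.1% of all genes. Myocd, the cofactor of serum response factor that drives the smooth muscle programme, had 1 read in 1 fibroblast and 136, 181, 89.9 and 145 CPM on the smooth muscle plates, a ratio of 0.000132 (counting interval 3.34e-06 to 0.000736). Mef2c and Foxs1 were lower in fibroblasts at 57.0 against 783 CPM and 14.4 against 225 CPM, as was Zfhx3 (52.0 against 227 CPM). Serum response factor itself, Srf, stood at 6.78 and 51.2 CPM in fibroblasts, against 43.0 to 68.1 CPM, with overlapping plates. Tcf21, a factor of fibroblast lineages, had 337 CPM on Pdgfra1, 0.172 CPM on Pdgfra2 and no smooth muscle read, and Gata6 (94.9 CPM), Sox9 (97.4 CPM) and Ebf2 (53.4 CPM) had 0, 7 and 3 smooth muscle reads. On Pdgfra2 Tcf21 lay under the 0.515 CPM that a gene with no read there may have. Its separation by plate thus rests on very few reads. Nr2f2, Tbx18, Foxc1, Prrx1 and Nfia were not called, at 299.5, 245, 148, 91.1 and 215 CPM in fibroblasts and 259, 179.7, 97.6, 106 and 183 CPM in smooth muscle cells. For Tbx18, often used to mark mural lineages, the fibroblast plates stood at 205 and 589 CPM and the smooth muscle plates between 124 and 239 CPM.

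Immediate early genes, which respond within minutes to handling, were read on both sides. Fos stood at 9687 CPM in fibroblasts and 9664 CPM in smooth muscle cells, but at 10502 and 2668 CPM on the 2 fibroblast plates and between 7122 and 12471 CPM on the smooth muscle plates. Of 26 genes counted 3 (11.5%) were called higher and 5 (19.2%) lower (median 0.10), near the 15.6% and 11.1% of all genes. Atf3 was lower at 225 and 38.5 CPM, against 1728 to 3117 CPM, with Nr4a1, Nr4a2 and the heat shock gene Hspa1a at 439, 11.8 and 249 CPM in fibroblasts, against 1645, 112 and 1668 CPM in smooth muscle cells. The phosphatase gene Dusp1 lay within 2-fold (1660.1 against 2562 CPM). Higher were Egr1 (3601 against 1316 CPM), Sgk1 (280.1 against 22.6 CPM) and Rgs2 (96.5 against 15.1 CPM). Fos in the other cells of the same plates stood at 2204 CPM (Pdgfra-H2BGFP) and 121 CPM (mural, low Acta2).

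Of 22 nuclear genes of oxidative phosphorylation, which makes most ATP in mitochondria, 14 were called lower in fibroblasts and 0 higher, with a median of -1.13. Atp5b, a subunit of ATP synthase, had 935 and 1051 CPM, against 2494 to 2901 CPM, and Cox8a and Cox4i2, subunits of cytochrome oxidase, stood at 127 against 406 CPM and 33.3 against 133 CPM. Ndufa4l2, also one of the pericyte markers, was lower at 58.2 against 159.9 CPM, and Atp5a1 and Sdha lay within 2-fold (812 against 1621 CPM and 407 against 743 CPM). Glycolysis genes showed no common direction, with 2 of 15 higher (13.3%) and 3 lower (20%), near the 15.6% and 11.1% of all genes (median -0.67). The phosphofructokinase isoform gene Pfkp was lower (17.5 against 251 CPM), with Gpi1 (188 against 456 CPM) and Pkm (130.5 against 296 CPM), while Hk2 (34.5 against 4.06 CPM) and Eno2 (41.0 against 11.7 CPM) were higher. Aldoa and Ldha lay within 2-fold, at 643 and 549 CPM in fibroblasts and 994 and 318 CPM in smooth muscle cells.

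A comparison of cells from the same plates holds line and plate constant. The other cells were again set apart by the genes of the choice, here at low levels. Genes that vary with those genes therefore meet the condition more readily, and the counts describe without testing. Of the 1807 genes called higher in fibroblasts, 926 (51.2%) were also at least 2-fold higher in fibroblasts than in the other Pdgfra-H2BGFP cells on both plates, and 111 were at least 2-fold lower than in those cells on both plates. Of the 1293 genes called lower, 426 (32.9%) were at least 2-fold higher in smooth muscle cells than in the low-Acta2 mural cells on all 4 plates, and 30 were at least 2-fold lower. The other cells are mainly oligodendrocyte-marker-rich and pericyte-marker-rich cells, so a gene shared with those cells drops out of these counts. The within-plate condition was met by 15 of 16 interstitial collagens, 15 of 15 elastic fibre genes and 15 of 15 Wnt genes on the fibroblast side, and 29 of 31 contractile genes on the smooth muscle side. Of the channel genes called lower 10 of 24 met it (41.7%), beside 32.9% over all lower genes, and of the Notch and oxidative phosphorylation genes 1 of 6 and 1 of 14. Kcnmb1 stood at 282 CPM and Atp5b at 1819 CPM in the low-Acta2 mural cells.

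The 2 fibroblast plates differed among themselves. Of the 1807 genes called higher in fibroblasts, 160 were at least 4-fold higher and 176 at least 4-fold lower on Pdgfra2 than on Pdgfra1, and 1471 lay within 4-fold. The same shares over all counted genes were not computed, so whether called genes differ more between these plates than others was not tested. Among genes of 100 CPM or more, the differences set Ptgds, Igfbp2, Slc13a4, Slc22a6, Igf2 and Slc6a13, all higher on Pdgfra2, against Tcf21, Gpx3, Gdf10, Moxd1, Dpep1 and Frzb, all higher on Pdgfra1. Each plate has 1 set of cells and a different depth, and the labels do not say which animals or regions they hold. A pooled value of these genes is therefore a mix of unlike plates, weighted by reads toward Pdgfra1, and no level of fibroblasts in general. Ptgds, pooled at 4405 CPM, had 1250.1 CPM on Pdgfra1 and 31562 CPM on Pdgfra2.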

How the data were processed

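RNA of single sorted mouse brain cells was sequenced as Smart-seq2 libraries. The deposited counts are whole-number reads per gene and cell, used as deposited for all 3186 cells. Per the submitters' processing notes, reads were aligned with STAR 2.4.2a to mm10. The counter, the gene annotation and any filter on cells were not given in the sources used here. Without molecular identifiers, copies made by PCR count as reads. A second deposited table of scaled values was not used.

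CPM was computed per cell, and reads of the chosen cells were summed per side and per plate. The ratio is log2((fibroblast CPM + 1)/(smooth muscle CPM + 1)), and fold changes of single genes are ratios of pooled CPM. Genes needed 5 CPM on a side to be counted, and a call needed a 2-fold difference with no overlap between plates of at least 5 cells. Thinning to 90000 reads used seed 1. No doublet caller was run, and leaving out wells with markers of other cells was an alternative. Coordinates come from the mm10 gene annotation and promoters from RefSeq (GRCm38.p6). Of 723 list genes 719 were in the files, 3 of them under an older symbol.

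The members and the lists were chosen with earlier results of these data known. Genes were named by rule: the 12 largest and 12 smallest ratios among called genes with 50 CPM or more on the higher side and reads in 50% of its cells, leaving out the genes of the choice, reporter genes and markers of other cell types, and in each list up to 4 called genes each way with at least 20 CPM and up to 2 within 2-fold. Other genes named were chosen after their values were seen, and some genes of the rule are not reported here. Python 3.11.15, numpy 2.4.6, pandas 2.3.3, scipy 1.17.1 and matplotlib 3.10.9 were used.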

Additional observations from a re-analysis of the deposited data

How the results depend on the processing

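The call counts moved by more than 1.5 times from 1807 higher and 1293 lower genes in these settings. With the median of the cells' CPM in place of the pool, 2246 genes were counted, against 11609 from the pools. Of these, 378 were called higher and 538 lower. Among those calls, 208 and 417 were also made from the pools, and 1 gene, Dhx58, was called the other way. With at least 50 CPM on a side 5281 genes were counted and 864 were called higher. With the 2-fold limit alone, plates overlapping or not, 2804 were higher and 1992 lower. With a 4-fold limit 634 were lower. Leaving out 1 plate at a time gave 1942 to 3437 higher and 1391 to 3037 lower genes, the highest counts without plate Pdgfra1, whose absence leaves 1 fibroblast plate that must not overlap. The 50 CPM, 2-fold-alone and 4-fold settings change the rule for a call itself, so their counts move by construction. The cause of the move with the median was not tested. Under the other settings tried, the counts stayed within 1.5 times. Of these, the mean of plate values (2011 and 1470) and the loss of cells rich in pericyte markers (1832 and 1277), were chosen after seeing the data. A Cldn5 limit of 100 CPM kept the same 85 and 181 cells, the highest Cldn5 of a smooth muscle cell being 39.3 CPM. That setting could therefore change no value here or in the counts below. Without the cells rich in pericyte markers 2 genes, Cmbl and Lipt2, were called the other way. For the list counts, 948 of 1056 alternative values stayed within 1.5 times and 108 did not. The 24 genes furthest from 0 kept their direction in all 528 alternative values, the smallest log2 size being 1.24. Since they were picked by these same ratios, this is a description only. The changed call limits and filters cannot alter a ratio, though their values are among the 528. Of the 528 values 316 stayed within the counting interval of the main ratio and 212 did not. Scaling the pools to a median ratio of 1 moved the median log2 ratio to 0.16 and gave 1987 higher and 1167 lower genes.

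No paired analysis was possible because each side is 1 sample with no animal named, and fibroblasts and smooth muscle cells share no plate. With 28 fibroblasts and 5822329 reads on Pdgfra2, a gene with no read there may have up to 0.515 CPM. Genes read in few cells of a side have a pooled level set by those cells.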

Other observations

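Markers of the compared classes also appeared outside them. Among the 1154 mural cells with Acta2 under 1000 CPM, 55 (4.77%) held 1000 CPM or more of the 6 fibroblast markers, with a highest cell of 3119 CPM, against 76 of 85 fibroblasts and 2 of 181 smooth muscle cells. Smooth muscle markers reached 1000 CPM in 28 of 85 fibroblasts, with a highest cell of 6574 CPM, and in 0 of the 166 other Pdgfra-H2BGFP cells, the highest of which stood at 249 CPM. All but a few low-Acta2 mural cells, 1123 of 1154, also held 1000 CPM or more of the smooth muscle markers. Of their summed 4511 CPM, 3840.3 CPM was Myl9, while Myh11 stood at 91.6, Tagln at 8.21 and Cnn1 at 0.0997 CPM.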
